A study of Mus musculus with 2 samples.

Results

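The core circadian clock genes are the 10 genes Arntl, Clock, Npas2, Per1, Per2, Per3, Cry1, Cry2, Nr1d1 and Nr1d2, described here in the adrenal gland of the mouse. They were taken by name, by a rule that uses no measured value, and each of the 10 names matched 1 gene among 55536 annotated genes. Total RNA, reduced of ribosomal RNA, had been sequenced with strand kept from 2 libraries of a single group, biological replicates 1 and 2. Both came from adult males aged 8 to 10 months of the strain written 5xFAD/CAST, a cross of 5xFAD and Cast mice, and 300 ng of RNA went into each. 5xFAD mice carry human transgenes for familial Alzheimer's disease driven by a neuronal promoter, and CAST mice are inbred from wild stock. The labels do not say whether these animals carried the transgenes. No other strain, genotype or tissue was analysed here, and Cast reads were placed on the mm10 reference, which holds no Cast alleles. The labels give a separate biosample to each library and 1 donor entry to both, so the spread between the libraries may be technical. The hour at which the glands were taken is not given in the sources used here, so each level below is that of an unknown phase of the daily cycle. With 1 group of 2 libraries there is no test, and every value below is a description of these libraries.

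The molecular clock of mammals is a feedback loop of transcription. The proteins BMAL1, made from Arntl, and CLOCK, or its relative NPAS2, pair up and bind E-box letters in DNA, where they switch on the Per and Cry genes and the nuclear receptor genes Nr1d1 and Nr1d2. PER and CRY proteins return to the nucleus and block BMAL1 and CLOCK, while the Nr1d proteins REV-ERB alpha and beta repress Arntl at ROR elements. In the adrenal cortex this clock is known to gate the response to corticotropin and to take part in the daily rhythm of glucocorticoid release, and Per1 is itself a known glucocorticoid target.

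The letters through which the loop is known to work were looked for in the RefSeq promoter windows of the members, because these sequences connect the repressor genes to their activators. A window ran from 250 bases before to 50 bases after a start site (GRCm38.p6), and 13 windows were held for 9 of the 10 members, Per2 being the one with no entry. The motifs searched, on both strands, were the E-box CACGTG, the E′-box CACGTT, the ROR element core TAGGTCA, the D-box TTATGNAA and the cyclic AMP response element TGACGTCA. None of these letter strings lies inside another. Below, the motif is in capitals, each stretch is read 5′ to 3′ along the gene's own strand, and AACGTG is CACGTT read on the opposite strand.
Per1, E-box, chr11:69098763-69098808, plus strand: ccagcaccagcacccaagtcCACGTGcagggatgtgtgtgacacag
Cry1, E′-box then E-box, chr10:85185089-85185153, minus strand: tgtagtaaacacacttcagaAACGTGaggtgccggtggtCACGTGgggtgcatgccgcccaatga
Cry2, E′-box, chr2:92434210-92434255, minus strand: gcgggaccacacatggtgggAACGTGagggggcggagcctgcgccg
Nr1d1, E′-box, chr11:98775380-98775425, minus strand: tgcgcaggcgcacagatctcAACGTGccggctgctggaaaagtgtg
Per1, D-box, chr11:69098905-69098948, plus strand: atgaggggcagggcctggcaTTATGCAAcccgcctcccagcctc
Per3, D-box in 2 copies, chr4:151044796-151044890, minus strand: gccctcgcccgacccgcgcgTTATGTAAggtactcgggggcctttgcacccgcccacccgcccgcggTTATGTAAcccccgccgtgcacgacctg
Arntl, ROR element core, chr7:113207531-113207557, plus strand: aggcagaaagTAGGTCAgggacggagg

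E-box or E′-box letters stood in the windows of 4 of the 6 repressor genes with a window and of 0 of the 3 activator genes. Among all 27025 genes of the promoter table, 13.0% held either one. Counted from the start site, with negative positions before it, Per1 held its E-box at -166 and Cry1 at -60, and 8.09% of all genes hold CACGTG in a window of this kind. E′-box letters stood at -79 in Cry1, -166 in Cry2 and -28 in Nr1d1, against 5.44% of all genes. The D-box, bound by Dbp, Tef, Hlf and their repressor Nfil3, was found at -24 in Per1 and at -205 and -158 in Per3, against 3.99% of all genes. Arntl held the ROR core at position 31, after the second of its start sites, within annotated exon sequence, against 2.97% of all genes. The Per1 E-box lies inside the annotated Per1 gene span but in no Per1 exon. The Per1 D-box ends before the first exon of Per1-201, and the Per3 pair lies inside the span of Camta1, which contains the whole of Per3. TGACGTCA was found in no member, against 2.03% of all genes, and the windows of Clock, Npas2 and Nr1d2 held none of the motifs. A match describes the letters of the window, and binding was not measured here.

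**Figure D1:**
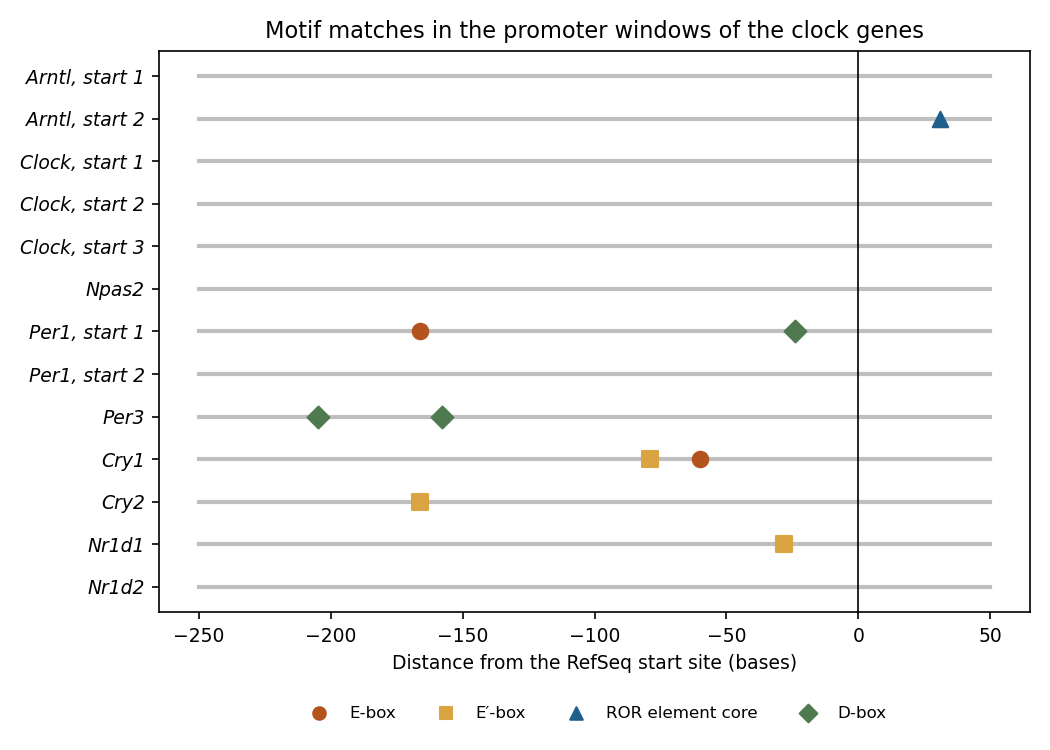
Motif matches in 13 promoter windows of 9 clock genes. The horizontal axis is the distance from the RefSeq start site in bases, from 250 before to 50 after, each grey line is 1 window and each symbol is the first base of a match. E-box and E′-box symbols stand only on lines of Per1, Cry1, Cry2 and Nr1d1, and the ROR core only on the second line of Arntl.

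Levels are given in TPM, a transcript abundance scaled for gene length and library, from the deposited gene tables. Detection meant a level of 1 TPM or above in each library, and 9 of the 10 members were detected, against 25.5% of all annotated genes and 56.2% of the 22028 protein-coding genes. In whole tissue, fewer cells of a type and less RNA per cell cannot be told apart. The order of the 10 members was the same in both libraries, from Nr1d1 through Nr1d2, Per2, Per1, Per3, Cry2, Clock, Cry1 and Arntl to Npas2. The ranges over the libraries overlapped for the neighbours Per2 and Per1, Per3 and Cry2, and Cry1 and Arntl, and did not overlap for the other neighbours.

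**Figure D2:**
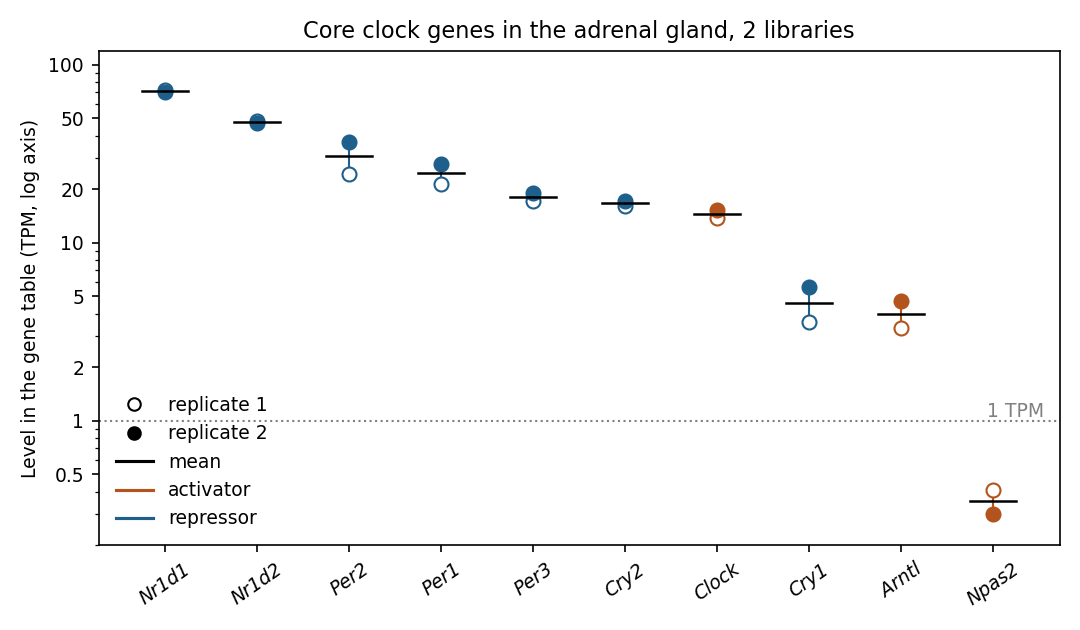
Level of each clock gene in the 2 libraries. The vertical axis is TPM on a log scale, open circles are replicate 1, filled circles are replicate 2, black lines are means of n = 2, and orange and blue mark activators and repressors. Nr1d1 stands highest, near 70 TPM, and Npas2 is the only gene under the dotted line at 1 TPM.

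Among the activators, Clock stood highest and Arntl well below it. Arntl encodes BMAL1, the partner that both CLOCK and NPAS2 need, and had 3.33 TPM in replicate 1 and 4.69 TPM in replicate 2 (4.01 ± 0.962, SD, n = 2). Replicate 2 was the higher, and the deposited TPM intervals of 2.93 to 3.83 and 4.11 to 5.27 did not overlap. This put Arntl (chr7:113207465-113314126, mm10) at the 15.5th and 22.3rd percentile of detected protein-coding genes in replicates 1 and 2. Clock, whose protein is a bHLH-PAS factor with acetyltransferase activity, had 13.9 and 15.3 TPM (14.6 ± 1.04), and its intervals overlapped. The Clock level was thus 4.17 and 3.27 times that of Arntl in the same libraries.

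Npas2, which can stand in for Clock in some tissues, had 0.41 and 0.30 TPM (0.355 ± 0.0778). These levels rested on 49 and 32 counts over the gene, and it was the only member under the detection limit. The Clock level was 33.8 and 51.1 times that of Npas2, and Clock made up 78.8% and 75.5% of the summed activator level. A second quantifier, whose transcript values were also deposited, gave 35.4 and 28.4 for the Clock to Npas2 ratio, so which library had the larger ratio depended on the table. The turn came with 1.35 estimated counts on the 484-base transcript Npas2-203 in replicate 2, at 0.161 TPM. The main transcript Npas2-201 had 0.363 and 0.305 TPM there, lower in replicate 2 as in the gene tables.

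The Period genes encode the PER proteins that carry CRY into the repressing complex. Per2 led them, with 24.4 TPM in replicate 1 and 36.9 TPM in replicate 2 (30.6 ± 8.85, SD, n = 2). Replicate 2 was the higher, and the deposited intervals, 20.7 to 28.7 and 35.3 to 42.3, did not overlap. Per1, a known target of cyclic AMP and glucocorticoid signals, had 21.3 and 27.8 TPM (24.6 ± 4.55), again higher in replicate 2 with intervals that did not overlap. Per3, which is dispensable for the rhythm itself in mice, had 17.2 and 19.2 TPM (18.2 ± 1.41), with overlapping intervals. The level of Per1 was 0.876 and 0.754 times that of Per2 and 1.24 and 1.45 times that of Per3.

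The Cryptochrome genes encode the strongest repressors of BMAL1 and CLOCK, and Cry2 was the higher of the pair in both libraries. Cry1, whose loss shortens the daily period of mice, had 3.57 and 5.66 TPM (4.62 ± 1.48, SD, n = 2), with replicate 2 higher and intervals of 3.38 to 5.39 and 5.46 to 8.35. Cry2, whose loss lengthens it, had 16.2 and 17.3 TPM (16.7 ± 0.778), with overlapping intervals. The Cry2 level was 4.52 and 3.05 times that of Cry1 in the gene tables and 3.89 and 1.66 times in the second quantifier. The gap between the tables in replicate 2 came with 1 short Cry1 transcript, described below.

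Nr1d1 and Nr1d2 encode REV-ERB alpha and beta, heme-binding nuclear receptors that recruit corepressors to Arntl and other genes. They were the highest of the members. Nr1d1 had 71.9 and 70.0 TPM (70.9 ± 1.28, SD, n = 2), at the 93.8th and 93.6th percentile of detected protein-coding genes. Nr1d2 had 48.6 and 47.0 TPM (47.8 ± 1.12), at the 89.3rd and 88.4th percentile. The Nr1d1 to Nr1d2 ratio of levels, 1.48 and 1.49 (1.49 ± 0.00794), moved least between the libraries of the ratios within a family. The level of Nr1d1 was 21.6 and 14.9 times that of Arntl, the gene its protein represses.

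Summed by role, the 3 activators came to 17.6 and 20.3 TPM (19.0 ± 1.92, SD, n = 2) and the 7 repressors to 203 and 224 TPM (213 ± 14.7). The repressor to activator ratio was 11.5 and 11.0 (11.3 ± 0.369). Without the Nr1d pair the ratio of the Per and Cry sum to the activator sum was 4.69 and 5.25 (4.97 ± 0.396), higher in replicate 2 where the full ratio was lower. The Nr1d pair held 54.6% and 47.9% of the TPM of all 10 members, the Per genes 28.5% and 34.3%, the Cry genes 8.94% and 9.39% and the activators 7.98% and 8.33%. In replicate 2 the Per share was the higher and the Nr1d share the lower, while the Cry and activator shares differed by under 1 percentage point.

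The libraries were set against each other by the log2 ratio of scaled counts, replicate 2 over replicate 1, with a standard error from counting alone. Of the 10 members 8 were higher in replicate 2, against 48.6% of the 16383 genes whose mean count reached 20. The median over the members was 0.17, over the 3 activators 0.07 and over the 7 repressors 0.23, while over all those genes it was -0.01 and their 5th and 95th percentiles were -0.53 and 0.44. Per2 had 3488 and 5406 counts, a log2 ratio of 0.77 ± 0.03 (SE), and 1.37% of the genes had a ratio at or above it. Cry1, with 299 and 412 counts, had 0.60 ± 0.11, and 2.53% of genes were at or above it. These were the 2 members at least 1.5-fold higher in replicate 2, against 2.69% of genes, and 0 members were at least 1.5-fold lower, against 4.03%.

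Per1, with 1795 and 2327 counts, had a log2 ratio of 0.52 ± 0.05 (SE), and Arntl, with 258 and 322 counts, had 0.46 ± 0.12. Both stood above the 95th percentile of all genes and under 1.5-fold. For Arntl part of the difference lay in retained-intron transcripts, described below. Per3 at 0.23, Cry2 at 0.10, Clock at 0.07 and Nr1d2 at 0.03 were nearer to 0, and for Nr1d2 the ratio was no larger than its counting error of 0.03. Nr1d1, with 5144 and 4297 counts, had -0.12 ± 0.03, and Npas2 had -0.47 ± 0.33 on its low counts. The deposited TPM intervals lay wholly higher in replicate 2 for 4 members, Arntl, Per1, Per2 and Cry1, against 5.28% of the 14173 detected genes, and wholly lower for 0 members, against 4.79%. Scaling to the added spike-in RNA moves the median of all genes by -0.10. With it 6 members were higher in replicate 2, against 27.6% of genes. Per2 alone was at least 1.5-fold higher there, against 1.92% of genes, and Cry1 stood at 0.51. Clock, at -0.03, and Nr1d2, at -0.07, were the members whose direction turned under that scaling. By the ratio of TPM, 7 members were higher, against 52.2% of genes, and Nr1d2 turned there too.

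**Figure D3:**
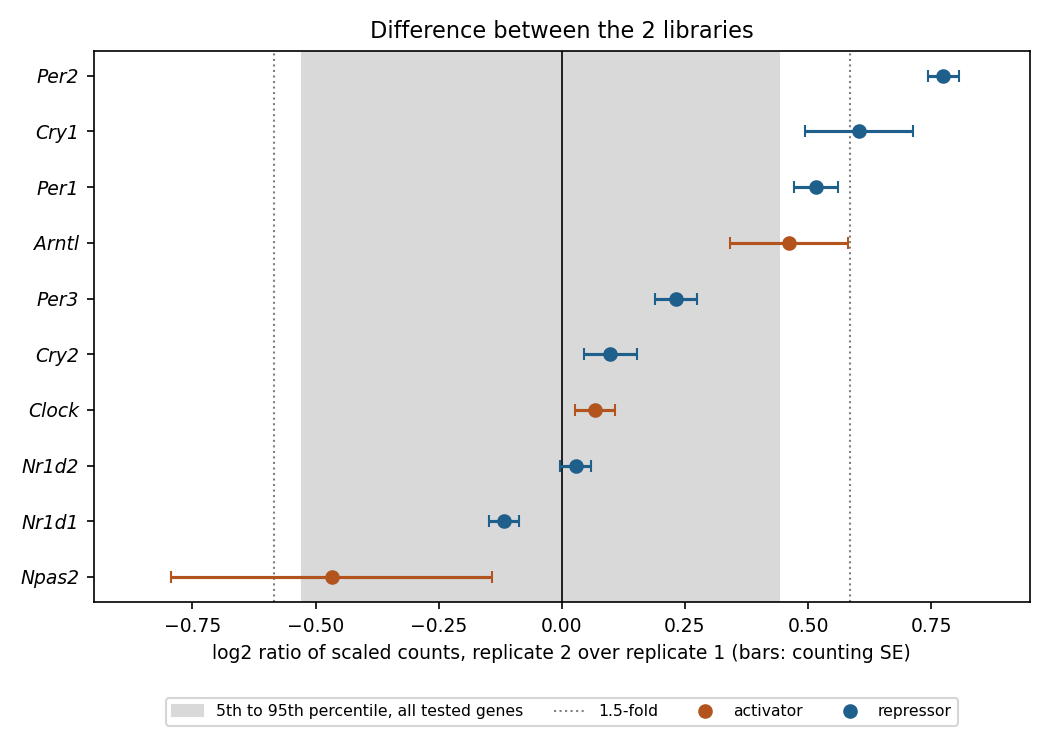
Difference between the libraries for each clock gene. The horizontal axis is the log2 ratio of scaled counts, replicate 2 over replicate 1, with bars of 1 counting standard error, and the grey band spans the 5th to 95th percentile of all 16383 genes tested. Per2, Cry1, Per1 and Arntl lie to the right of the band, and Npas2 and Nr1d1 lie left of 0.

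Transcripts were described from the table of the same pipeline, as each transcript's percent of its gene's TPM, beside the second quantifier. For Per2 nearly all counts belonged to Per2-201, a protein-coding transcript of 5833 bases with 23 exons, at 21.2 and 36.9 TPM. A 231-base processed transcript, Per2-202, took 11.9 counts in replicate 1, which its short length turned into 3.18 TPM or 13.1% of the gene, and 0 in replicate 2. The second quantifier gave Per2-201 100% in both libraries, with 19.4 and 32.3 TPM for the gene, so the higher Per2 level of replicate 2 stood in both tables.

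Per1 was divided between Per1-201, with 45.5% and 56.3% of its TPM, Per1-204, with 33.2% and 26.4%, and Per1-202, with 21.3% and 16.6%. Per1-204 is a 496-base transcript of 3 exons that held only 4.48% and 3.20% of the Per1 counts. The level of Per1-201 was 9.71 and 15.6 TPM, while Per1-204, at 7.08 and 7.34 TPM, and Per1-202, at 4.54 and 4.60 TPM, hardly differed between the libraries. In the second quantifier Per1-206, a 4636-base protein-coding transcript, held 32.8% and 33.2% and Per1-204 held 7.17% and 0%. The split of Per1 among its transcripts therefore depended on the table. With transcripts shorter than 1000 bases left out, an alternative chosen after seeing the data, Per1 had 14.3 and 20.4 TPM. On that measure Per1 stood below Per3 and Cry2 in replicate 1, and the order of replicate 2 was unchanged.

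Cry1 was almost wholly Cry1-201, a 3026-base protein-coding transcript, with 100% and 96.9% in the pipeline's table. The second quantifier gave it 88.2% and 51.2%, as it placed 2.25 and 23.1 counts on Cry1-202, a 406-base transcript with a retained intron, at 0.310 and 4.03 TPM. The pipeline's table had 0 counts there. In replicate 2 the Cry1 gene level was 8.79 TPM in the second quantifier and 5.66 TPM in the gene table, while the level of Cry1-201 alone was 4.50 and 5.48 TPM. Cry1-201 was higher in replicate 2 in both tables.

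Transcripts annotated as retained intron, which are not annotated to make the full protein, held a large part of Per3 and Nr1d2. In Per3 they held 37.6% and 35.5% of TPM, spread over Per3-202 and Per3-205, and the protein-coding Per3-201 held 40.5% and 54.1%. In Nr1d2 they held 37.6% and 33.3%, in Nr1d2-202 with 22.2% and 19.7% and Nr1d2-203 with 15.4% and 13.7%, and the protein-coding Nr1d2-201 held 58.8% and 65.0%. The short protein-coding Nr1d2-204 held 3.60% and 1.72%, and 11.9% and 11.6% in the second quantifier. The second quantifier gave retained-intron transcripts 32.6% and 31.2% of Per3, and gave protein-coding transcripts 69.0% and 73.1% of Nr1d2. By counts, which are not divided by length and so weigh long transcripts more, the protein-coding share was 53.5% and 67.0% in Per3. In Nr1d2 it was 86.0% and 88.4%. The libraries held total RNA, so for any member reads of its own unspliced RNA and of retained-intron transcripts cannot be told apart here.

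Clock had 20.4% and 22.5% of its TPM in retained-intron transcripts, and its protein-coding level was divided mainly between Clock-205, of 9744 bases, with 41.1% and 31.8%, and Clock-201, of 7478 bases, with 19.0% and 30.5%. The second quantifier turned that order, with 26.5% and 21.2% for Clock-205 and 33.8% and 40.0% for Clock-201. Clock-204, also protein-coding, held 13.5% and 8.70%, and the retained-intron transcripts Clock-206 and Clock-203 held 11.3% and 11.6% and 9.07% and 10.8%. Arntl had 17.2% and 27.7% in that class, and its leading transcript Arntl-201 held 73.2% and 44.9%. Arntl-201 itself had 2.43 and 2.11 TPM while Arntl-206, a further protein-coding transcript, had 0.23 and 1.11 TPM. The retained-intron transcripts Arntl-202, with 0.31 and 0.82 TPM, and Arntl-205, with 0.26 and 0.48 TPM, were also higher in replicate 2. The higher Arntl level of replicate 2 was thus not in its leading transcript, and part of it was in retained-intron transcripts. By counts that class held 15.7% and 28.3% of Arntl, and Arntl-202 alone had 35 and 82 of the 258 and 322 counts. In the second quantifier the class held 16.7% and 21.3% of the TPM of Arntl. In the second quantifier Arntl-201 had 2.32 and 1.71 TPM, Arntl-206 had 0.197 and 0.944 TPM and Arntl-202 had 0.309 and 0.668 TPM. Arntl-205 hardly differed there, at 0.240 and 0.249 TPM. Nr1d1 was mostly Nr1d1-201, with 93.7% and 88.5%, and Cry2 mostly Cry2-201, with 66.1% and 68.3%, beside the protein-coding Cry2-202 with 14.6% and 14.7% and the processed transcript Cry2-203 with 13.8% and 12.1%. Npas2 had only Npas2-201 in the pipeline's table.

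**Figure D4:**
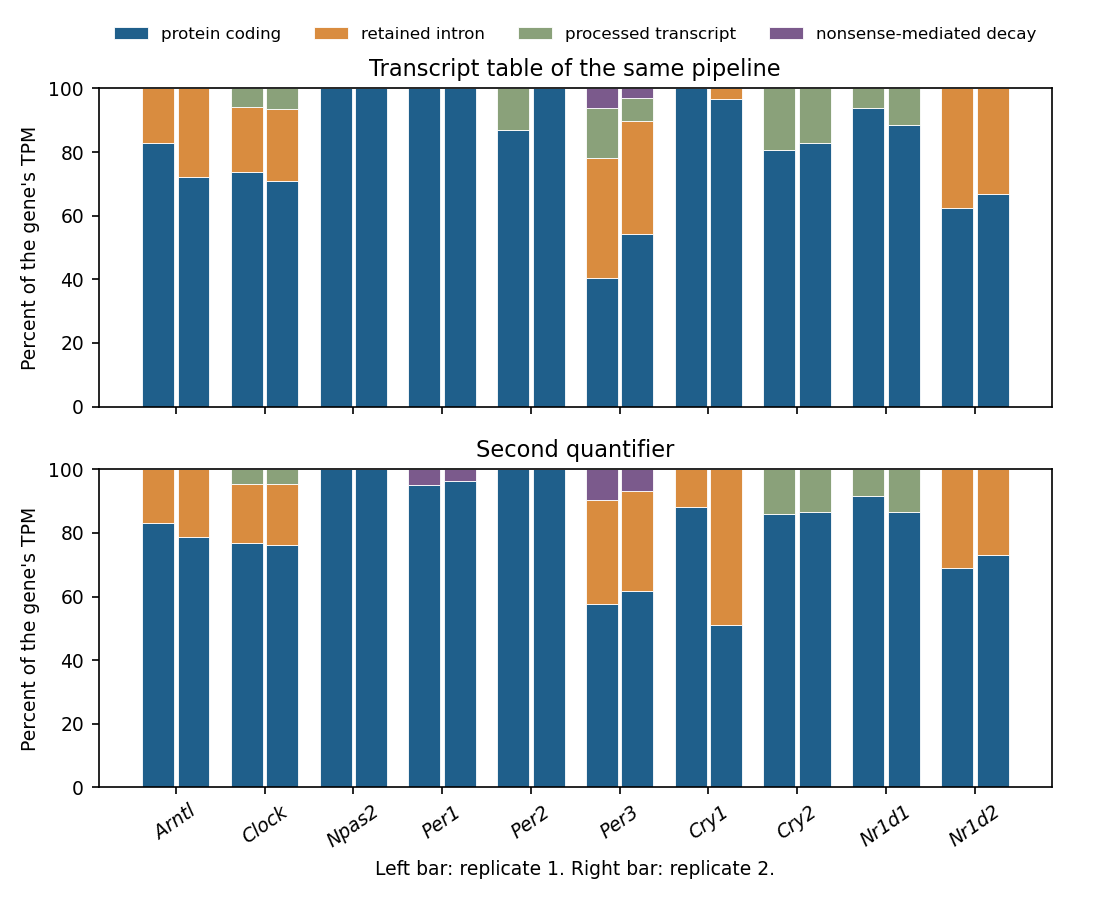
Annotated class of the transcripts of each clock gene. The vertical axis is the percent of the gene's TPM, the left bar of each pair is replicate 1 and the right bar replicate 2, and the panels are the pipeline's table and the second quantifier. Per3 and Nr1d2 hold large retained-intron parts in both panels, and Cry1 in replicate 2 differs most between the panels.

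Reads shared with other genes were checked through the annotated transcripts. No stretch of 31 bases was shared between members, and Arntl, Npas2, Per1, Per2, Cry1 and Nr1d1 shared none with any other gene. Nr1d2 shared 514 of its 5403 stretches (9.51%), all with the processed pseudogene AC170187.1, which had 0.34 and 0.45 TPM against 48.6 and 47.0 TPM for Nr1d2. The posterior SD of the Nr1d2 count, deposited beside it, was 0.94 and 0.88 counts. Nr1d1 overlaps the thyroid hormone receptor gene Thra over 1075 bases on the opposite strand, and Thra had 30.0 and 29.3 TPM. On its own strand the Clock span holds the processed pseudogene Ube2n-ps1 over 459 bases, with 36.7 and 35.1 TPM, above the level of Clock, and the gene model Gm43658, with 0.78 and 0.76 TPM. Per3 lies on the same strand inside Camta1, which had 19.4 and 13.9 TPM, so reads of unspliced Camta1 in that span and retained-intron reads of Per3 cannot be told apart here.

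The other genes of the pathway were described in lists. Of 12 clock-linked transcription factors, 11 were detected, and 8 were higher and 4 lower in replicate 2. Their median log2 ratio was 0.19 (0.088 with spike-in totals, where the median of all genes was -0.10). Among all genes whose mean count reached 20, 48.6% were higher, and 56.2% of protein-coding genes were detected. Dbp, a D-box activator known as a direct target of BMAL1 and CLOCK, was the highest at 127 and 128 TPM (128 ± 0.523, SD, n = 2). Tef, of the same family, had 61.6 and 73.1 TPM, and Rora, the activator that competes with REV-ERB at ROR elements, had 33.6 and 39.7 TPM. Ciart, a repressor of the CLOCK and BMAL1 complex, had 3.98 and 6.08 TPM, with a log2 ratio of 0.64 ± 0.16 (SE). It was the only gene of the list past 1.5-fold, and 2.69% of all genes were past it higher. Rorb, at 0.18 and 0.25 TPM, was the one not detected.

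The next lists hold genes that act on or with clock proteins. The shares of all genes given above for detection and direction are the background for them too. All 12 kinase and phosphatase genes were detected, 4 higher and 8 lower in replicate 2, with a median of -0.01. The highest were Ppp1ca, a catalytic subunit of protein phosphatase 1, at 122 ± 2.57 TPM (SD, n = 2), Csnk1a1, casein kinase 1 alpha, at 84.5 ± 1.32 TPM, and Csnk2b, the regulatory subunit of casein kinase 2, at 69.9 ± 2.69 TPM. All 7 ubiquitin pathway genes were detected, 3 higher and 4 lower, with a median of -0.06. Among them Fbxw11, part of a ligase that recognises phosphorylated PER, had 39.6 ± 2.48 TPM, and Usp2, a deubiquitinase, had 24.6 ± 0.785 TPM. All 15 coactivator and corepressor genes were detected, 7 higher and 8 lower, with a median of -0.01, led by Ddx5 at 359 ± 16.6 TPM and Rack1 at 197 ± 1.85 TPM. None of the genes of these 3 lists was past 1.5-fold in either direction, and among all genes whose mean count reached 200, where nearly all of these lie, only 0.457% were past it higher and 0.961% lower.

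Lists of other targets of signals known to reach Per1 were also described. Of 10 glucocorticoid response genes all were detected, and 9 were higher and 1 lower in replicate 2. Their median log2 ratio was 0.17 (0.07 with spike-in totals) and 0 were past 1.5-fold. Among all genes whose mean count reached 20, 48.6% were higher, with a median of -0.01 (-0.10 with spike-in totals). Past 1.5-fold, 2.69% of those genes were higher and 4.03% lower, and 56.2% of protein-coding genes were detected. Mt1 and Mt2, metallothioneins, had 107 and 144 TPM and 79.1 and 96.5 TPM, and Sgk1, a kinase gene, had 53.1 and 61.2 TPM. Of 15 immediate early genes 12 were detected, 3 were higher and 12 lower, with a median of -0.23. Jun had 162 ± 15.1 TPM (SD, n = 2), Fosl2 112 ± 3.54 TPM and Nr4a1 61.7 ± 4.11 TPM. For Nr4a1 the log2 ratio of scaled counts was 0.42, while its TPM was 64.6 and 58.8, lower in replicate 2. Egr1 at -0.61, Egr2 at -1.05, Atf3 at -1.56, Dusp1 at -0.84 and Zfp36 at -0.68 were past 1.5-fold lower, against 4.03% of all genes. Fosb, Egr2 and Atf3 were not detected. Per1, itself an early response gene, was higher in the library in which most of this list was lower. The part of either signal in the Per1 difference was not tested.

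The labelled tissue was checked against its markers, and some marker levels differed between the libraries along with the clock genes. The libraries held 29204618 and 26322446 counts in annotated genes, and spike-ins took 0.468% and 0.504% of the counts. Summed over their lists, 7 adrenal cortex markers had 17210 and 18176 TPM, 3 zona glomerulosa markers 536 and 519 TPM and 6 medulla markers 1996 and 2307 TPM. White adipocyte markers had 757 and 468 TPM, all 8 of them lower in replicate 2, with a median log2 ratio of -0.77. Of these 6 were past 1.5-fold lower, against 4.03% of all genes whose mean count reached 20. Macrophage markers had 243 and 169 TPM, with 4 of 6 lower and 2, Lyz2 and Cd68, past 1.5-fold lower. Lyz2 alone had 146 and 81.4 TPM of that sum. Csf1r, with a log2 ratio of 0.14, and C1qa, with 0.03, were the 2 higher. All 6 medulla markers were higher in replicate 2, with a median of 0.17. Among all genes 48.6% were higher in replicate 2. Lymphocyte, liver and skeletal muscle markers were detected for 0 genes and kidney markers for 1 of 5. The part of adipocytes, macrophages and medulla in the higher Per2, Cry1, Per1 and Arntl values of replicate 2 was not tested.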

How the data were processed

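The authors' deposited gene tables gave expected counts, TPM and FPKM per gene, lower and upper interval limits (signal values on the TPM scale, with no confidence level in the headers) and the posterior SD of each count, per the file headers. The matching deposited transcript tables held expected counts, TPM and, in percent, the part of a gene that each transcript makes up, and another deposited table, the second quantifier, gave estimated counts and TPM. The build was mm10 per the labels, and aligner and quantifier names were not given in the sources used here. TPM divides by length, so a few counts on a short transcript weigh heavily.

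Counts were rounded, and log2 ratios used TMM totals (edgeR 4.0.16, R 4.3.3) and a prior count of 0.5. DESeq2 1.42.0 size factors were an alternative. Python 3.11.15, pandas 2.3.3, numpy 2.4.6 and matplotlib 3.10.9 did the rest, and the ratios were tested on simulated data. Rows naming no annotated gene held 0.469% and 0.504% of counts and stayed out. Standard errors cover counting error only, and they treat reads as independent molecules, which reads are not. Gene identifiers, transcripts and positions came from GENCODE M21, promoters from RefSeq (GRCm38.p6).

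The members, lists and thresholds were chosen with earlier results of these data known. The text names all members, and of each pathway list the 3 highest by mean TPM, those past 1.5-fold if their mean count reached 20, and those not detected, except some that are not reported here. Transcripts are named at 10% or more of their gene in both libraries in either table. Outside that rule, Per2-202, Cry1-202, Arntl-202, Arntl-205, Arntl-206, Npas2-203 and AC170187.1 were chosen after their values were seen. Protein identity between paralogs was planned and is not analysed here.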

Additional observations from a re-analysis of the deposited data

How the results depend on the processing

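The repressor to activator ratio, 11.3 in the gene tables, was 10.8 in the second quantifier, 12.6 with protein-coding transcripts only, 4.97 without Nr1d1 and Nr1d2, 4.83 with means in place of sums and 10.2 with transcripts of at least 1000 bases, the last chosen after seeing the data. The median log2 ratio of the members, 0.17, was 0.068 with spike-in totals and 0.23 for members whose mean count reached 200. Members at least 1.5-fold higher numbered 2, against 2.69% of all genes, and 1 with spike-in totals, against 1.92%. The share of all genes past 1.5-fold higher was 14.3% with no limit on low counts and 0.457% at a mean count of at least 200, and past 1.5-fold lower it was 17.7% and 0.961%. At 5 TPM 7 members were detected. Of the summary values under alternatives 38 stayed within their limits and 8 moved, and none changed direction. With 2 libraries no ratio between them exists once one is left out. No paired analysis was possible because the series holds 1 group. The depth limits Npas2 most, with 49 and 32 counts.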
